A study of Mus musculus with 6 samples.

Results

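The cytosolic ribosomal protein genes encode the protein part of the ribosome of the cytoplasm, and this account describes the accessible chromatin intervals in and around them in mouse liver. Members were the protein-coding RefSeq genes whose symbol is Rpl or Rps with digits and at most 1 further letter, together with Rplp0, Rplp1, Rplp2 and Rpsa. The S6 kinases (Rps6k) and symbols with -ps were left out. The rule found 81 genes among 21883 protein-coding genes, of which 47 encode proteins of the large subunit, 31 proteins of the small subunit and 3 proteins of the stalk. They lie on 19 chromosomes. Membership was decided by symbol alone and used no measured value.

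ATAC-seq, which marks open DNA by where the Tn5 transposase can cut it and leave adapters, was run on livers of male wild-type mice given a high-fat diet. According to the labels, 3 libraries came from the inbred strain C57BL/6J and 3 from the inbred strain 129S1/SvImJ. Age, length of feeding, time of collection and whether each library came from its own animal are not stated in the labels. The labels carry an antibody entry naming Esrrg, which has no place in this assay, and call the transposed material by an abbreviation that they do not explain. What was analysed is 1 list of 120905 interval positions that combines the libraries, on mm10, with no read count, score or strain for any interval. The depth behind an interval is therefore unknown, the strains were not compared at these genes, and the values that follow describe both strains at once. Among marker genes of liver cells, an interval lay within 1 kb of an end of 10 of 10 hepatocyte genes and 3 of 8 macrophage genes. The counts were 2 of 6 for lymphocyte genes, 2 of 5 for sinusoidal endothelial genes and 3 of 5 for stellate cell genes. The share of all protein-coding genes was 61.5%. Within 1 kb of a start listed in RefSeq the hepatocyte genes did not stand out, with 4 of 7 against 61.7% of all genes. There the counts were 3 of 5 for macrophage, 0 of 3 for lymphocyte, 1 of 3 for endothelial and 2 of 3 for stellate cell genes.

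Ribosomal proteins are needed in nearly equal amounts, and their genes are among the most strongly transcribed in dividing and secretory cells, hepatocytes included. Their messages begin with a C followed by a run of pyrimidines, the terminal oligopyrimidine (TOP) motif, through which the kinase mTORC1 and the RNA-binding protein Larp1 tie translation to nutrients. Their promoters mostly lack a well-placed TATA box and are known for binding sites of ETS-family factors such as GABP, of YY1 and of Sp1. Many host small nucleolar RNAs, which guide the modification of ribosomal RNA, in their introns.

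The promoters of 6 members are shown first, because the position of the intervals is read against them. They are RefSeq sequences of GRCm38.p6, the assembly of mm10, read 5′ to 3′ on the strand of the gene from 60 bases before to 25 bases from the listed start on. Capitals mark the unbroken run of C and T that covers the listed start, where there is one. Rps6, Rpl7a and Rplp2 stand for starts in a long pyrimidine run, Rpl39 for a short run, and Rpl39l and Rpl23 for members without an interval nearby.
Rps6, chr4:86857343-86857427, minus strand: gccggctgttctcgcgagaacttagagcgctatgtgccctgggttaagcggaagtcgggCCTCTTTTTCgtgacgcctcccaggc
Rpl7a, chr2:26910747-26910831, plus strand: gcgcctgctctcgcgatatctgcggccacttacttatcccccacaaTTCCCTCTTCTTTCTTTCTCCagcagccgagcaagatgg
Rplp2, chr7:141447591-141447675, plus strand: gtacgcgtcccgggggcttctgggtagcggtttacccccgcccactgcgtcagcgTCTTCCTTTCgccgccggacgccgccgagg
Rpl39, chrX:37085198-37085282, minus strand: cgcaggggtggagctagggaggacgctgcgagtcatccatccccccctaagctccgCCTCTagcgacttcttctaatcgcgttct
Rpl39l, chr16:10170168-10170252, plus strand: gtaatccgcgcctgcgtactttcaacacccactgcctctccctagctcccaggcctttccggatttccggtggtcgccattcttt
Rpl23, chr11:97782415-97782499, minus strand: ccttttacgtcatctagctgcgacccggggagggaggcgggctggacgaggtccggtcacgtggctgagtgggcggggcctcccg

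The first question was how many of these genes carry an accessible interval at their promoter. An interval overlapped the 1 kb to either side of a gene end in 75 of 81 members (92.6%, exact Clopper-Pearson 95% interval 84.6 to 97.2), against 61.5% of all protein-coding genes. The interval covers counting error only, since genes are not replicates. Large subunit genes had 43 of 47, small subunit genes 29 of 31 and stalk genes 3 of 3, so the groups by role did not stand apart. Members are short, with a median span of 3.175 kb against 17.17 kb for all protein-coding genes, and among the 8613 genes whose span lies within the members' range the share was 46.8%. When a listed start inside the gene span counted as well, the number was 77 of 81 (95.1%) against 65.1% of all genes, and each of the 31 small subunit genes was included.

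RefSeq starts and strands were at hand for 61 of the 81 members. An interval overlapped the 1 kb around a listed start in 54 of these 61 (88.5%, 77.8 to 95.3) against 61.7% of the 17491 genes with a listed start. Within the promoter window itself, from 250 bases before to 50 after the start, the count was 51 of 61 (83.6%) against 52.1%. All 23 small subunit genes with a listed start had an interval within 1 kb of it, and 29 of 36 large subunit genes did. The nearest interval centre lay a median of 100 bp from the start (quartiles 55 and 207), where the median for all genes was 215 bp and the upper quartile 6990 bp. Members thus had an interval at the start more often than the background, and the few without one lay in the large subunit group. Higher shares were found in most similar groups. Mitochondrial ribosomal protein genes had 68 of 69 (98.6%), complex I subunits 33 of 34 (97.1%) and proteasome subunits 30 of 33 (90.9%). All 14 initiation factors and all 17 ribosome biogenesis genes with a listed start had one. Elongation and other factors with TOP messages had 7 of 8 (87.5%). These differences were not tested.

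Intervals of ribosomal protein genes lay to the upstream side of the start. Of the 54 members with an interval there, 48 (88.9%) had its centre upstream, against 63.8% of 10799 genes. The median position was 75 bp upstream (quartiles 147.25 and 35.5 bp upstream), and 37 bp upstream for all genes. The interval covered the start itself in 34 of 54 members (63.0%), close to the 62.7% of all genes. The exceptions were the 6 members with the centre at or past the start. They were Rps3 at 1 bp, Rpl13 at 20 bp, Rps4x at 42 bp, Rpl22 at 55 bp, Rpl24 at 93 bp and Rpl9 at 190 bp downstream.

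**Figure D1:**
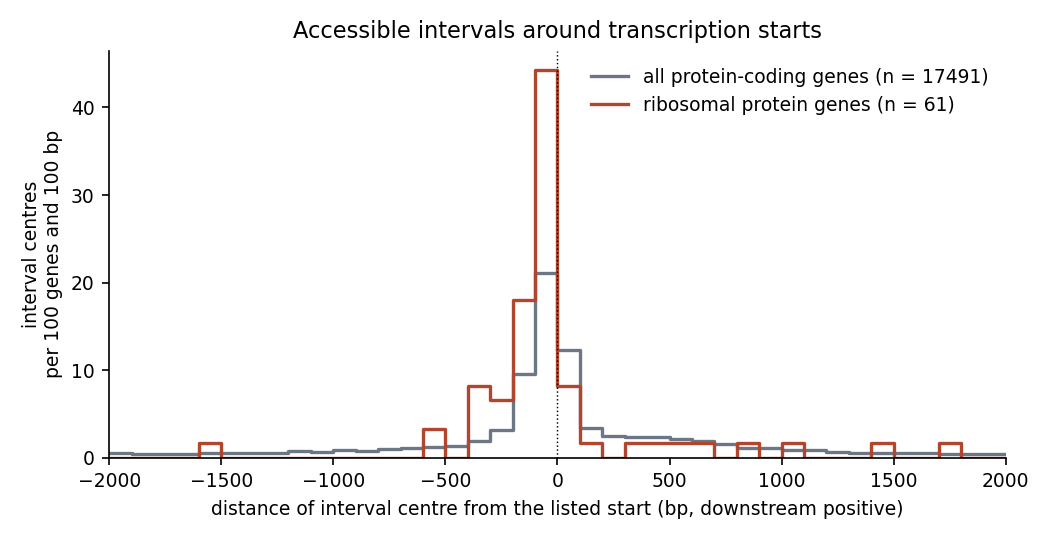
Number of interval centres per 100 genes in bins of 100 bp (y axis) by distance from the first listed start (x axis, bp, downstream positive) for 61 ribosomal protein genes and 17491 protein-coding genes. The members' peak of 44.3 lies in the 100 bp before the start, and in the 100 bp past the start their line lies below that of all genes.

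The profile around the start shows the same side. In the 100 bp before the first listed start there were 27 interval centres among 61 members, or 44.3 per 100 genes, against 21.1 for all genes. From 100 to 200 bp before it the values were 18 and 9.59. In the first 100 bp past the start the order turned round, with 8.20 per 100 members and 12.3 per 100 genes. Over a whole kilobase, members had 80.3 centres per 100 genes upstream and 18 downstream, and all genes had 42.2 and 30.9. Other gene groups of the translation machinery and of large complexes gave shares of upstream centres that can be set beside the members' 88.9%. They were 11 of 14 for initiation factors (78.6%), 6 of 7 for genes of mTORC1 and TOP control (85.7%), 12 of 17 for ribosome biogenesis genes (70.6%) and 6 of 11 for RNA polymerase I genes (54.5%). The shares were 46 of 68 for mitochondrial ribosomal protein genes (67.6%), 20 of 30 for proteasome subunits (66.7%), 23 of 33 for complex I subunits (69.7%) and 7 of 7 for elongation and other factors with TOP messages. Whether the members differ from these groups was not tested.

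**Figure D2:**
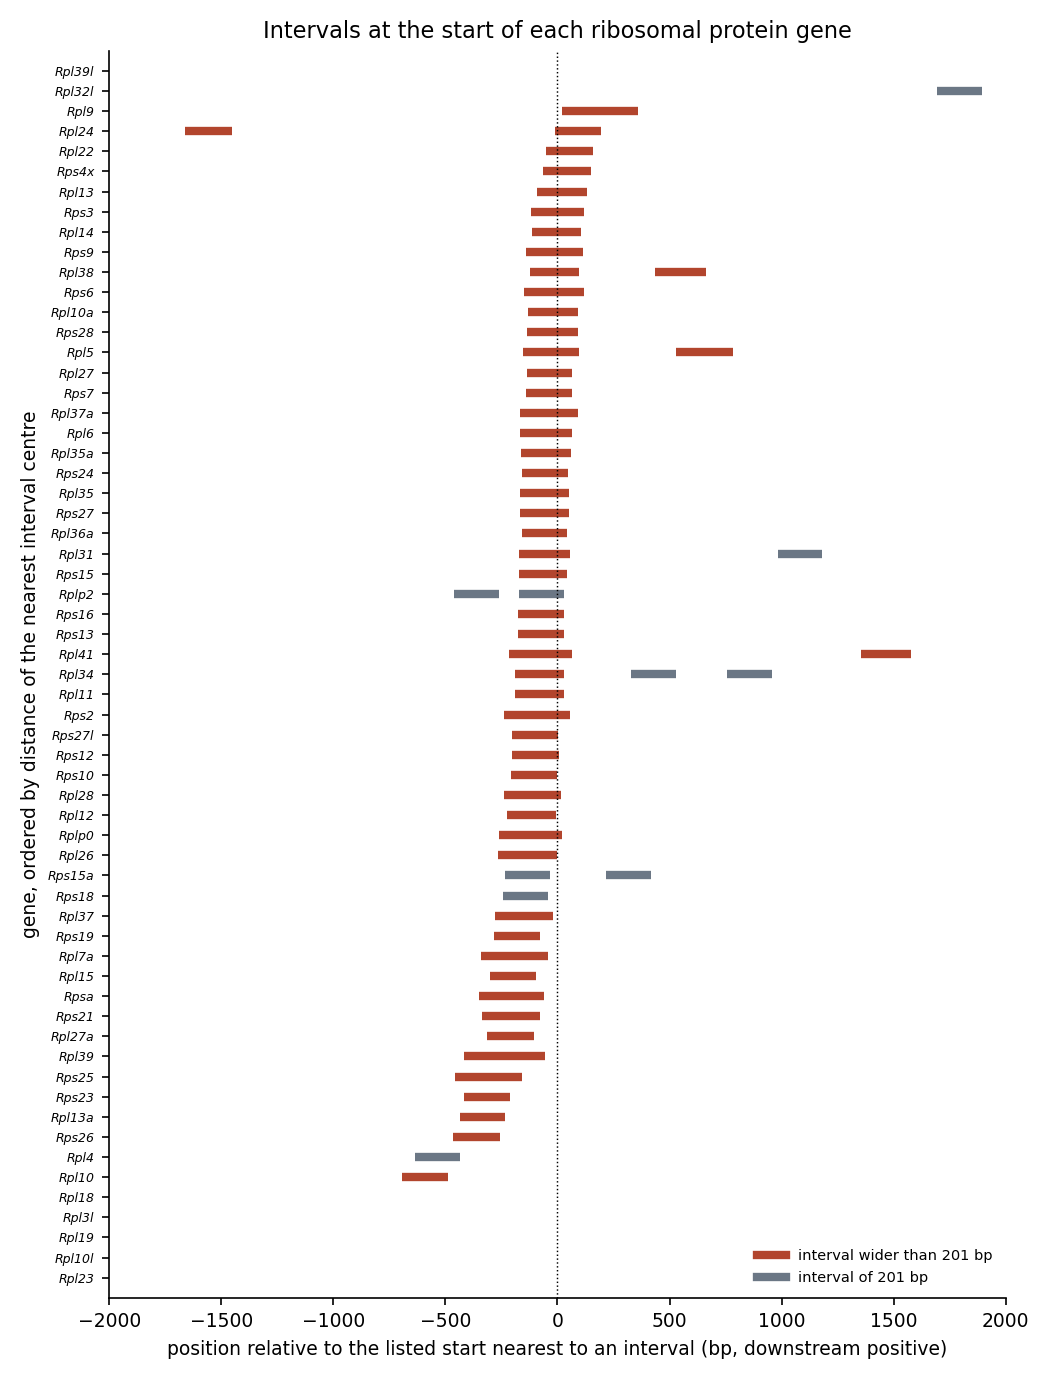
Each row is 1 of the 61 ribosomal protein genes with a listed start, and bars are the deposited intervals within 2000 bp of the listed start nearest to an interval (x axis, bp, downstream positive; grey for intervals of 201 bp, red for wider ones). Of the 54 genes with an interval within 1 kb of a start, 48 have the nearest one centred upstream. The nearest interval covers the start in 34 of the 54. The genes with no interval within 1 kb of a start are the bottom 5 and the top 2.

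Single members show where the interval lies relative to the start. Rps6, whose product is phosphorylated by S6 kinase downstream of mTORC1, had a 271 bp interval at chr4:86857248-86857518, centred 16 bp upstream of the start printed above and covering the pyrimidine run. Rpl7a, a large subunit protein, had a 304 bp interval at chr2:26910464-26910767 centred 192 bp upstream, which ends before its run of pyrimidines begins. That interval lay also within 1 kb of an end of Med22. Rpl39, which lines the peptide exit tunnel, had the widest interval at an end of any member. It was 361 bp wide, at chrX:37085277-37085637, and centred 235 bp upstream. These examples show that a pyrimidine start can lie inside an interval or just outside it.

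Members with roles that are often taught also had an interval near the start, though not all on its upstream side. Rps3, at the entry of the message channel, had a 236 bp interval centred 1 bp downstream of its start. Rpl5 and Rpl11, which bind the p53 regulator Mdm2 when they are not assembled, had intervals of 254 bp and 219 bp centred 29 and 82 bp upstream. Rps19, the gene most often mutated in Diamond-Blackfan anaemia, had a 207 bp interval centred 180 bp upstream. Rpsa, which also serves as a laminin receptor precursor, had a 292 bp interval centred 206 bp upstream. Rpl4, a protein of the exit tunnel, was set apart by distance, with a 201 bp interval centred 536 bp upstream that lies also near an end of Zwilch.

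For members without a listed start, the nearer gene end was used. All 20 had an interval within 1 kb of an end, against 61.5% of all protein-coding genes. No strand was at hand for these 20, so the nearer end may be the one opposite to the start. Rpl3, close to the peptidyl transferase centre, had an interval of 201 bp with its centre 14 bp beyond the upper-coordinate end on chromosome 15. Rps27a, which is made as a fusion with ubiquitin, had only 1 interval, of 206 bp, also within 1 kb of an end of Clhc1. Its centre was 179 bp beyond the upper-coordinate end of Rps27a on chromosome 11. For Rps14, a small subunit gene lost in a form of myelodysplastic syndrome, the distance was 269 bp and the width 203 bp. Each of these intervals lay within 300 bp of the gene end.

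The stalk, a flexible arm of the large subunit that recruits elongation factors, is built from Rplp0, Rplp1 and Rplp2. Rplp0 (chr5:115559467-115563729) had a 281 bp interval centred 121 bp upstream of its start. Rplp1 (chr9:61913283-61914510) had one of 294 bp with its centre 164 bp beyond the upper-coordinate end. Rplp2 (chr7:141447651-141451359) had 201 bp intervals centred 71 and 363 bp upstream, both also within 1 kb of an end of Pidd1. All 3 thus had an interval at a gene end, and that of Rplp2 nearest to the start was of the narrowest width in the list.

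The next question was which members lacked an interval at the promoter. By gene ends, 6 of 81 lacked one: Rpl10l, Rpl23, Rpl32l, Rpl39l, Rps2 and Rps27l. Rps2 and Rps27l had one at a listed start inside the span, centred 92 and 100 bp upstream, with widths of 294 and 205 bp. Rpl39l (chr16:10170197-10174911), a copy of Rpl39 known from testis, had no interval in its span or in 10 kb on each side of it, the nearest centre lying 22556 bp from the start. Rpl10l (chr12:66283379-66284401), an intronless copy of the X-linked Rpl10 known from testis, had 1 interval, 6296 bp upstream. Rpl32l, a small gene of 592 bp, had 3 intervals in the window, the nearest centred 1794 bp past its start.

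Rpl3l, the copy of Rpl3 known from heart and skeletal muscle, had 5 intervals in its window but none within 1 kb of a listed start. The nearest to a start was centred 3355 bp upstream, at chr17:24724343-24724599, and lies also within 1 kb of an end of Ndufb10. Its interval at an end, of 202 bp, sat at the end opposite to the start and also near an end of Msrb1. None of Rpl3l, Rpl10l, Rpl32l and Rpl39l, the 4 members whose symbol ends in l other than Rps27l, had an interval within 1 kb of a listed start. They were set side by side after their values were seen, and no test was made.

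Rpl39 and Rpl10, the parent genes of Rpl39l and Rpl10l, each had an interval near the start. Rpl39 had its 361 bp interval 235 bp upstream, and Rpl10 (chrX:74270816-74273135) had a 207 bp interval centred 590 bp upstream of its start. Rps27l, a close copy of Rps27, had its interval at a listed start, as did Rps27, with 219 bp centred 57 bp upstream. That of Rps27 lay also within 1 kb of an end of Rab13. Rps4x on the X chromosome, the mouse gene for a small subunit protein, had a 216 bp interval over its start. Rpl22 had one of 210 bp over its start, Rpl36a its only interval, of 205 bp, centred 58 bp upstream, and Rpl7 one of 201 bp with its centre 541 bp beyond a gene end that also lay near an end of Rdh10.

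Beside Rpl39l, Rpl23 was the only member with no interval in its window. This large subunit gene (chr11:97777526-97782439) lies on the minus strand, and the nearest interval centre was 17217 bp upstream. Its promoter, printed above, holds the letters CACGTG 3 bases before the start and a match to TGACGT, read as ACGTCA, 54 bases before it. Rpl18 and Rpl19 also had no interval within 1 kb of a listed start, but their listed starts lie inside the gene span. Both had a 201 bp interval near the lower-coordinate end, 127 bp outside it for Rpl18 and 561 bp inside it for Rpl19. The interval of Rpl19 also lay within 1 kb of an end of Cacnb1.

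The number of intervals around each member was then counted. In the span plus 10 kb on each side, 79 of 81 members had at least 1 interval (97.5%) against 83.9% of all protein-coding genes. The median was 3 (quartiles 2 and 4, highest 6), and for all genes it was 3 (quartiles 1 and 5, highest 100). Between 2 and 4 intervals were found at 60 members (74.1%) and at 40.5% of all genes. More than 6 were found at none of the members and at 16.9% of all genes. Genes of the members' span range, which are closer to the members in length, had a median of 2 (quartiles 0 and 3, highest 10).

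**Figure D3:**
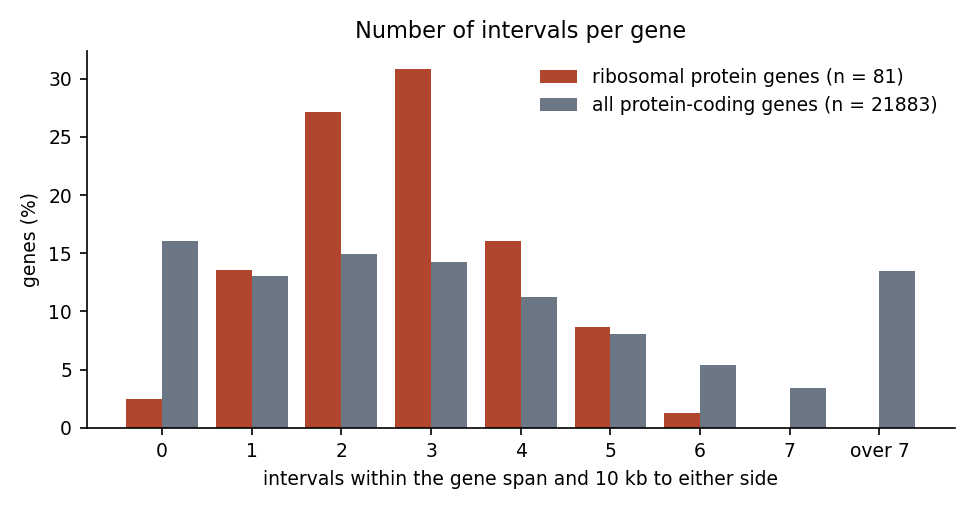
Share of genes (y axis, percent) by the number of intervals in the span plus 10 kb on each side (x axis), for 81 ribosomal protein genes and 21883 protein-coding genes. The members gather at 1 to 5 intervals, with 2 genes at 0 and 1 gene at 6.

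Most of these intervals lay outside the genes, as did most of each window, with 10 kb of flank on each side of a median span of 3.175 kb. The split that follows was not made for all genes. Counted per member, the windows held 223 intervals (219 distinct ones, since 4 lie in the windows of 2 members), of which 92 were within 1 kb of an end, 7 elsewhere inside the span and 124 in the flanks. An interval overlapped the span itself in 49 of 81 members (60.5%) against 69.1% of all genes, which are longer. Rplp2 had the most with 6, and those past its far end lie within 1 kb of an end of Pnpla2, the triglyceride lipase gene. Members with 5 included Rpl23a, Rpl24 and Rpl34. In Rpl34, 4 of the 5 intervals overlapped the gene, 3 of them of exactly 201 bp, with a 217 bp interval centred 80 bp upstream of the start.

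Of the 4 intervals counted for 2 members, Rps2 and Rpl3l, which lie 5.899 kb apart on chromosome 17, shared 2. Rpl41 and Rps26, 75.361 kb apart on chromosome 10, shared none.

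Width is the only property of an interval beside its position. Because 46.2% of the whole list has the narrowest width of 201 bp, wider intervals were counted separately. An interval wider than 201 bp lay within 1 kb of an end of 66 of 81 members (81.5%, 71.3 to 89.2) against 51.7% of all genes. At the start, the nearest interval was of exactly 201 bp in 4 of 54 members (7.41%) and in 17.7% of all genes with one. It was wider than 250 bp in 16 of 54 (29.6%) against 17.4%. The widest interval at an end had a median of 217 bp (range 201 to 361 bp) over 75 members and 216 bp over all genes with one. After Rpl39, the widest were those of Rpl9 with 337 bp, Rpl7a with 304 bp, Rps25 with 299 bp and Rplp1 with 294 bp. Those of Rpl9, Rpl7a and Rps25 lay also within 1 kb of an end of another protein-coding gene. The nearest interval at the start of members was thus less often of the narrowest width, while the median of the widest interval was almost that of all genes.

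An interval at a gene end can belong to a neighbour. In 17 of the 75 members with such an interval, every one of them also lay within 1 kb of an end of another protein-coding gene, and 58 had at least 1 that did not. This was counted for members only, so it does not show whether such sharing is more or less frequent than at other genes. Rps28 and Ndufa7, a complex I subunit gene, shared a 227 bp interval centred 22 bp upstream of the start of Rps28. Rpl9 and Lias, the lipoic acid synthase gene, shared the 337 bp interval, and Rps18 and Vps52, a gene of vesicle transport, shared a 201 bp interval centred 142 bp upstream of the start of Rps18. The end of the gene opposite to the start had an interval in 12 of 61 members (19.7%, 10.6 to 31.8) against 13.2% of all genes with a strand. In a gene as short as Rps27, with a span of 982 bp, the interval at the start also counts for the opposite end. Positions alone cannot assign a shared interval to either gene.

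The members' promoters were then compared by sequence with the promoters of all 17491 protein-coding genes with a listed start, each 300 bases long and the first listed of its gene. The first base was C in 20 of 61 members (32.8%) and in 13.7% of all promoters. A run of 5 or more C and T covered the listed start in 19 of 61 (31.1%) against 8.56%, and a run of 8 or more in 16 (26.2%) against 3.46%. The longest was the run of 21 in Rpl7a. The letters CTTTC within 10 bases of the start were found in 10 of 61 (16.4%) against 2.39%. Listed starts may miss the main start by some bases. A run of 8 or more anywhere from 10 bases before to 50 after the start, a window chosen after the values were seen, was found in 41 of 61 (67.2%) against 21.1%.

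**Figure D4:**
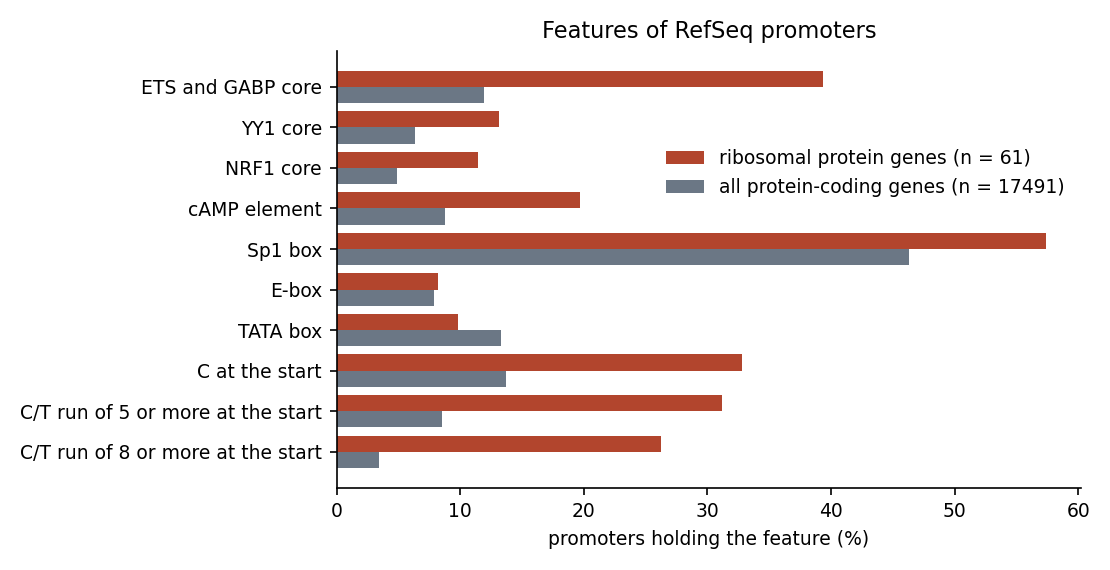
Share of promoters (x axis, percent) that hold each motif on either strand or each start feature, for 61 ribosomal protein genes and 17491 protein-coding genes. The members' bars are longer for the ETS and GABP core (39.3% against 11.9%) and the pyrimidine runs. The order of the Sp1, E-box and TATA bars turns when only promoters with an interval are compared.

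Motif letters were searched on both strands, and a match is a description of the letters only. CCGGAAG, the core of ETS and GABP sites, stood in 24 of 61 member promoters (39.3%) against 11.9% of all. TGACGT, the core of cAMP response elements, stood in 12 (19.7%) against 8.76%, AAGATGG, the core of YY1 sites, in 8 (13.1%) against 6.37%, and GCGCATG, the core of NRF1 sites, in 7 (11.5%) against 4.88%. The Sp1 letters GGGCGG stood in 35 (57.4%) against 46.3%, the E-box CACGTG in 5 (8.20%) against 7.90%, and TATAAA in 6 (9.84%) against 13.3%. For these last 3 motifs the order turned when only promoters with an interval in the window were compared, 51 of members and 8623 of all genes. There GGGCGG stood in 60.8% of members against 69.0%, CACGTG in 5.88% against 9.95% and TATAAA in 9.80% against 6.51%. The other 4 motifs kept their order, with 41.2% against 19.4% for CCGGAAG, 17.6% against 12.3% for TGACGT, 13.7% against 7.31% for AAGATGG and 9.80% against 7.20% for GCGCATG. Median GC content was 57% against 56.3%, and the median number of CG dinucleotides was 21 against 13.

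The ETS and GABP core is shown in 3 members, because it was the motif with the largest gap to the background among the 7 searched. Each stretch has 20 bases to either side of the match, which is in capitals, 5′ to 3′ on the strand of the gene. In Rps6 the match begins 91 bases before the start and lies inside the interval. In Rplp2 it begins 108 bases before the start, on the other strand, and also lies inside an interval. Rpl39l, which has no interval in its window, holds the letters at 146 and 92 bases before the start.
Rps6, chr4:86857432-86857478, minus strand: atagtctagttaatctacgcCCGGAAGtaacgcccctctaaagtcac
Rplp2, chr7:141447523-141447569, plus strand: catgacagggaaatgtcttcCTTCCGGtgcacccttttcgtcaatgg
Rpl39l, chr16:10170062-10170108, plus strand: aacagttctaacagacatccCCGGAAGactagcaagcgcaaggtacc
Rpl39l, chr16:10170116-10170162, plus strand: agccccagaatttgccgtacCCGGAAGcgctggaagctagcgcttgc

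Matches could be set against the intervals at the base level. Intervals held 51.7% of the bases of the 61 member promoters. Of 29 matches to CCGGAAG, 17 (58.6%) lay wholly inside an interval, and of 51 matches to GGGCGG 35 (68.6%) did. For AAGATGG it was 3 of 8 and for GCGCATG 6 of 8, the latter in 7 genes. The GCGCATG matches that begin 7 and 10 bases after the start of Rpl37a, both inside, overlap on opposite strands. The 8 matches to the YY1 core lay on both sides of the start, from 243 bases before to 38 after it, with a median of 7 bases downstream. In Rpl7a, AAGATGG begins 18 bases after the start printed above. The median place of CCGGAAG was 62 bases before the start. The members' ETS and GABP matches were thus found in intervals at a rate near that of all promoter bases.

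Host genes of small nucleolar RNAs were frequent. A snoRNA gene lay inside the span of 29 of 81 members (35.8%) against 1.7% of all protein-coding genes, with 58 snoRNA genes in all. By role, 19 of 47 large subunit genes, 9 of 31 small subunit genes and 1 of 3 stalk genes were hosts. This is a property of the annotation and not of the intervals.

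Other genes of the pathway were counted from lists by function. Fau, which encodes a ribosomal protein fused to a ubiquitin-like one, and Rack1, a scaffold on the small subunit, each had an interval at an end. The same held for 13 of 13 elongation and other factors with TOP messages, 15 of 15 initiation factors, 22 of 22 ribosome biogenesis genes and 10 of 10 genes of mTORC1 and TOP control. Of 11 genes of RNA polymerase I transcription 10 did, and the exception, Ubtf, had an interval centred 110 bp upstream of a listed start inside its span. Mitochondrial ribosomal protein genes had 74 of 78 (94.9%), proteasome subunits 36 of 40 (90.0%) and complex I subunits 37 of 40 (92.5%). The members' 92.6% lies within the range of these groups, and no test sets it apart from them.

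**Figure D5:**
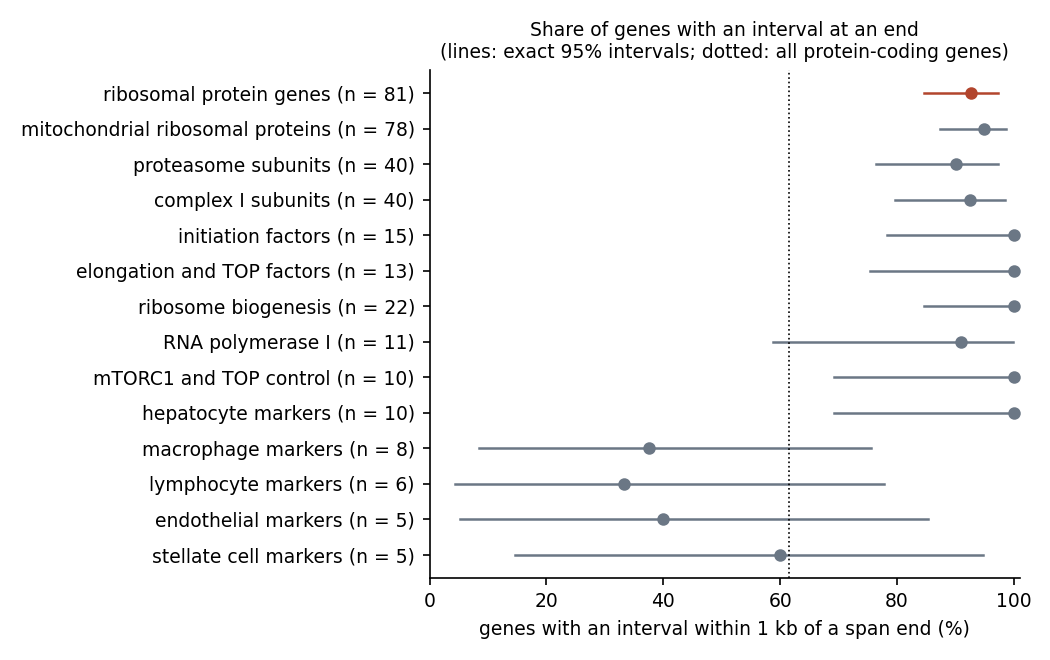
Share of genes with an interval within 1 kb of a span end (x axis, percent) for each gene list (rows, with n), with exact Clopper-Pearson 95% intervals as lines and the 61.5% of all protein-coding genes as a dotted line. The ribosomal protein genes (red, 92.6%) sit among the other lists of translation and of large complexes, and the markers of macrophages, lymphocytes and endothelium have lower shares.

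Single genes of these lists had intervals at like distances. Eef1a1, the main elongation factor that brings aminoacyl-tRNA, had a 206 bp interval centred 154 bp upstream of its start. Tpt1, a TOP message often used as an example of this control, had one of 228 bp centred 168 bp upstream, and Rack1 one of 330 bp centred 270 bp upstream. Ncl, the nucleolar protein nucleolin, had one of 217 bp centred 115 bp upstream. Each of these 4 lay upstream of the start, as most of the members' intervals did, but other genes of the lists differed. The nearest centre lay 236 bp downstream of a start for Eif4e, 196 bp downstream for Polr1a and 1441 bp upstream for Eef2.

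Genes with longer suffixes were left out by the rule and gave 4 of 6 with an interval at an end. Rps3a1, a small subunit gene, had a 210 bp interval centred 25 bp upstream of its start, Rpl36al one of 257 bp at 102 bp, Rpl22l1 one of 205 bp at 66 bp and Rpl7l1 one of 210 bp at 56 bp. Rpl37rt and Rps27rt, which are listed as protein-coding copies, had none at an end. With these genes included, the share of the members was 90.8%.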

How the data were processed

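Positions were deposited by the authors as 1 list of 3 columns (chromosome, start and end, in no other unit), combined over the libraries. Per the submitters' processing notes, fastp, Bowtie2, HOMER and mm10 were used, without versions. The shift of read ends, filters on duplicate and multiply mapped reads, the peak threshold and the rule for combining were not stated there. A threshold sets how many weak sites enter, and near-identical copies can lose reads. Starts were converted to 1-based positions. Gene spans and promoters were RefSeq's for GRCm38.p6, matched by gene ID, and 61 of 81 members had a promoter entry. Overlap by at least 1 bp was counted with Python 3.11.15, numpy 2.4.6 and pandas 2.3.3, and exact intervals with scipy 1.17.1. The counting was tested on simulated data. No test across libraries could be run, because no column names a library; shares are given beside those of all protein-coding genes. Members and lists were chosen with earlier results of these data known. Named genes were those with the most intervals, those with none, the widest or farthest intervals, stalk genes, genes with well-known roles and near copies with their parents. Alternatives were other windows, flanks, widths, suffixes and backgrounds. Sequence of chromosome 18 was not used in print. A few single genes covered by that rule are not reported here.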

Additional observations from a re-analysis of the deposited data

How the results depend on the processing

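Of 32 alternatives for 9 results, 3 changed only the background and could not move the members' value. Of the other 29, 26 stayed within the 95% interval of a share or within 1 SD over members of a median, and 3 did not. Without the intervals of 201 bp the share of members with an interval at an end was 81.5% (51.7% of all genes). The median number of intervals was 1 with a flank of 0 kb (1 for all genes) and 9 with 50 kb (8 for all genes). Shares at an end were 88.9% with a window of 500 bp and 96.3% with 5 kb, and 94.9% without the tissue-restricted copies. The share centred upstream was 88.0% without intervals of 201 bp, an alternative chosen after seeing the data like 8 others, which concern the start and motifs. The unknown depth limits every value: a missing interval does not show closed chromatin. No paired analysis was possible because the list has no column for a library, and for the same reason no library was left out in turn.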

Other observations

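Processed copies of ribosomal protein genes are numerous in the mouse genome, and the gene table named 318 pseudogenes of these families by -ps. An interval overlapped the span of 7 of them (2.20%, exact Clopper-Pearson 95% interval 0.889 to 4.48), against 773 of 10111 other pseudogenes (7.65%, 7.13 to 8.18) and 49 of 81 members (60.5%). With 1 kb to either side the shares were 11.6%, 14.1% and 95.1%, and with 10 kb they were 55.0%, 49.4% and 97.5%. The median span was 531 bp for family pseudogenes, 943 bp for other pseudogenes and 3175 bp for members, so the windows differ in length. The family copies with an interval in the span were Rpl27a-ps1, Rpl27a-ps4, Rpl31-ps25, Rpl9-ps8, Rplp1-ps1, Rpsa-ps1 and Rpsa-ps3, named here after their values were seen. The record of Rpl31-ps25 spans 41903 bp, far more than the median copy.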
